A study of Mus musculus with 12 samples.

Results

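The cytosolic ribosomal proteins are the protein components of the ribosome that translates messenger RNA in the cytosol, and their genes were followed here across 2 T cell populations and 2 mouse strains. A gene was taken as a member where its symbol in the platform annotation starts with Rpl or Rps and a digit, or is Rplp0, Rplp1, Rplp2 or Rpsa, without symbols marked as pseudogenes and without the Rps6k kinases. Only probe sets naming 1 gene were used, which gave 50 members among 18193 genes. By role they were 20 proteins of the large subunit, 21 of the small subunit, 2 proteins of the stalk of the large subunit (Rplp0 and Rplp2), 6 paralogs (Rpl3l, Rpl7l1, Rpl22l1, Rpl39l, Rps4l and Rps27l) and Rps19bp1. The rule goes by the symbol, so Rps19bp1, which encodes a protein that binds Rps19 and is no part of the ribosome, is among the 50. A further 110 probe sets name a gene of the family together with other genes and were kept out of the 50, so ribosomal proteins measured by such probe sets alone are not among them.

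The arrays measured RNA of splenic CD4+ T cells from mice aged 6 weeks, with 12 arrays in 4 groups of 3 and RNA pooled from 3 mice on each array. B6g7 Tconv and B6g7 Treg came from B6.H2g7 mice, which carry the H2g7 haplotype of the major histocompatibility complex of NOD on the C57BL/6 background, and NOD Tconv and NOD Treg from NOD mice, which develop autoimmune diabetes spontaneously. Cells negative for CD8a, CD11b, CD69 and B220 were sorted in 2 passes as CD25 negative (Tconv, conventional T cells) or as CD25 high (Treg, regulatory T cells), so that Treg are defined by CD25 and not by a reporter. No treatment is named for any group, and every group shares the H2g7 haplotype. The series text calls the 3 arrays of a group independent replicates, and compares the ratio of Treg to Tconv between the strains.

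Ribosomal protein genes are among the most highly transcribed genes of a cell. Their messenger RNAs begin with a run of pyrimidines at the 5′ end, the TOP motif, through which mTORC1 and the LARP1 protein adjust their translation and stability together, while Myc and RNA polymerase I set the pace of ribosome production as a whole. In T cells ribosome production rises on activation and growth.

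The annotated transcription starts of the members were looked at for pyrimidine runs, because the motif is the feature that the family is known to share and that the choice by symbol did not use. The windows hold 15 bases before and 15 bases from the annotated start, 5′ to 3′ on the strand of the gene, from the RefSeq promoter table of GRCm38.p6, and capitals mark every run of at least 7 letters that are each C or T. Of the 50 members, 44 had an entry, and 24 of them (54.5%) had such a run at 1 or more starts, against 3140 of 14452 measured genes with an entry (21.7%). A gene may have several annotated starts; by start, the run was present at 24 of 52 starts of members (46.2%) and at 18.6% of all 32851 starts in the table. The search used the sense strand, and any gene may have such letters by composition. A run counted anywhere in the window, also where it ended before the annotated start, as in the run printed for Rps27l. A counted run therefore need not lie at the 5′ end of the messenger RNA, where the TOP motif is. The windows of 7 members whose values are described further on are these, with those of Rplp0 and Rps3a1 shown because they hold no run of that length at the annotated start.
Rplp0 (chr5:115559452-115559481, plus strand): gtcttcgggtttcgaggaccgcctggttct
Rpl12 (chr2:32961697-32961726, plus strand): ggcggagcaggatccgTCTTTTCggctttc
Rpl22l1 (chr3:28805493-28805522, plus strand): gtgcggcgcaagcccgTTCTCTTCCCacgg
Rps27l (chr9:66946071-66946100, plus strand): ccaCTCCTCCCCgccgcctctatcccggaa
Rps9 (chr7:3704026-3704055, plus strand): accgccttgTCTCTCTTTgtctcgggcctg
Rps6 (chr4:86857353-86857382, minus strand): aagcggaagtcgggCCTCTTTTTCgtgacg
Rps3a1 (chr3:86142654-86142683, minus strand): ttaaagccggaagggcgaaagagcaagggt
Rps27l has a second annotated start whose window holds no run.

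Values are log2 of the intensity that the authors deposited after RMA, which normalizes the arrays against each other, so a level is relative to the rest of the RNA on the same array. In sorted bulk cells, fewer cells of a type and less RNA per cell cannot be told apart. Foxp3 and Il2ra, the lineage factor and the CD25 chain of Treg, followed the labels on all 12 arrays: Foxp3 lay between 5.57 and 6.24 in Tconv and between 10.67 and 11.26 in Treg. After sorting, 94% to 96% of B6g7 Treg and 89% to 95% of NOD Treg stained for Foxp3, the lowest being NOD Treg 1. The actin control, whose 3′ minus 5′ difference grows with RNA degradation or short amplification, ranged from 2.66 in B6g7 Treg 1 to 4.696 in NOD Treg 2. Among markers of other cells, 1 of 5 plasma cell genes (Xbp1) and Cd79b of 9 B cell genes passed the test as higher in Treg in both strains, Bank1 of the B cell genes in B6g7 alone. Bank1 was also lower in NOD Treg than in B6g7 Treg (-1.027, adjusted p = 0.00478). The summed plasma cell markers reached 10.49 to 10.71 in B6g7 Treg and 10.69 to 10.90 in NOD Treg, against 9.90 to 10.19 over both Tconv groups, and the summed B cell markers 9.88 to 10.19 in Treg against 9.79 to 10.05 in Tconv. The sums add unlogged intensities, so bright genes weigh most in them. Averaged over strains, the median change in Treg was -0.01 over the 5 plasma cell genes, with 3 negative. Over the 9 B cell genes it was -0.016, with 5 negative. The part of these markers in the results was not tested.

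Of the probe sets representing the members, 36 of 50 had an intensity above the 95th percentile of all probe sets and 2, Rps16 and Rps4l, lay under 5.28, the 25th percentile, and are called dim. The distance from the lowest to the highest of the 12 arrays was below 1 on the log2 scale for 46 of 50 members (92% against 86.4% of all genes) and below 0.5 for 20 of them (40% against 43.6%), with a median of 0.574 against 0.538 over all genes. Over the 36 bright members that median was 0.531, against 0.704 over the 1488 genes above the same percentile. The ends of this range were Rpl13a, a large subunit protein also known as a regulator of translation in inflammation, with 0.159, and Rps9 of the small subunit with 2.884.

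The general level of the family was read from each array's median over the members. The median deviation of the 50 members from their own mean over 12 arrays was -0.184, -0.125 and -0.072 on the 3 NOD Treg arrays, and between -0.008 and 0.091 on the other 9 arrays. Over all 18193 genes the same median lay between -0.055 and 0.034, and on NOD Treg between -0.028 and 0.021. The group means were -0.127 ± 0.056 in NOD Treg, 0.041 ± 0.049 in B6g7 Tconv, 0.035 ± 0.017 in B6g7 Treg and 0.046 ± 0.050 in NOD Tconv (SD, n = 3), so the arrays of NOD Treg did not overlap those of any other group. These are levels relative to the other genes: with the arrays scaled to the members' own median deviation, the median change of all genes was 0.1512 in NOD Treg against NOD Tconv and 0.1625 against B6g7 Treg. In NOD Treg 1, the array with the fewest Foxp3 positive cells, 46 of 50 members lay below their own mean, and 32 of 50 did so on each of NOD Treg 2 and NOD Treg 3.

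**Figure D1:**
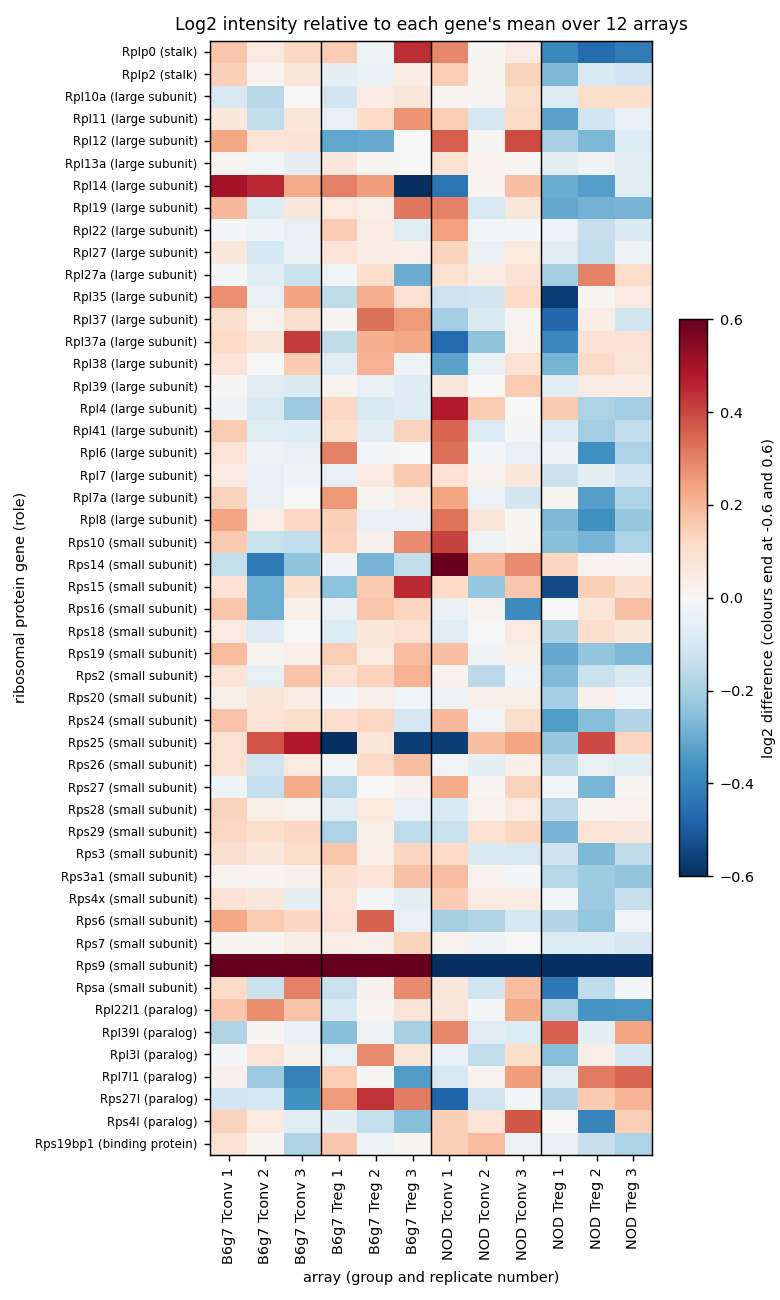
Heat map of the log2 intensity of the 50 ribosomal protein genes (rows, with role) on the 12 arrays (columns, by group and replicate number), as the difference from each gene's mean over the 12 arrays. Blue, below the mean, prevails on the NOD Treg arrays, with 46, 32 and 32 of 50 members below their mean; Rps9 splits by strain, and its colours are at the end of the scale.

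**Figure D2:**
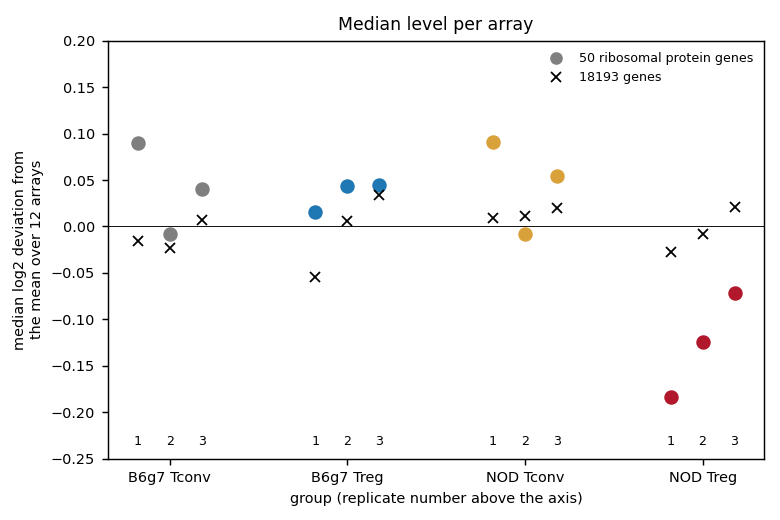
Median log2 deviation from the mean over 12 arrays for the 50 ribosomal protein genes (circles) and for all 18193 genes (crosses), 1 point per array, by group and replicate number. The circles of NOD Treg lie at -0.184, -0.125 and -0.072, below those of the other 9 arrays, while the crosses lie between -0.055 and 0.034 throughout.

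In NOD, Treg were compared with Tconv. Rplp0, Rpl22l1 and Rpl8 fell in Treg and no member rose, so 3 of 50 members (6%) passed the test of limma at an adjusted p under 0.05, against 4.38% of all genes (called in either direction). The median change of the members was -0.155 against -0.021 over all genes, and 40 of 50 changes were negative against 56.2% of all genes. For 19 members (38%) all 3 Treg arrays lay below all 3 Tconv arrays, against 11.1% of all genes, and for 0 members above them, against 8.28%. With quantile normalization 11 members lay below in this way, against 10.5% of all genes. Bright genes as a whole were also lower in NOD Treg: the median was -0.179 over the 36 bright members, with 32 negative, and -0.091 over all 1488 bright genes. With quantile normalization added across arrays, the median of the members was -0.066, 33 of 50 changes were negative and 0 members were called. The call count was also 0 without NOD Tconv 1, NOD Tconv 3, NOD Treg 2 or NOD Treg 3, and without the 4 arrays numbered 1, where the median was -0.09. Replicate numbers were counted as pairing the arrays here. With the number as a block 5 members (10%) were called, against 6.81% of all genes. All were lower: the 3 named, Rpl12 (-0.434 ± 0.103, adjusted p = 0.026) and Rps19 (-0.335 ± 0.088, adjusted p = 0.0468).

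In B6g7 the same comparison gave no call among the members, against 4.55% of all genes, and 4 of 50 members had an unadjusted p under 0.05 in limma, against 13.55% of all genes. The median change was 0.046 against 0.001 over all genes, with 19 of 50 changes negative. Rps27l and Rps3a1 had all Treg arrays above all Tconv arrays (4% against 9.91% of all genes), and Rpl12, Rpl22l1, Rps20, Rps25 and Rps29 below them (10% against 6.73%). Averaged over the strains, Rps27l rose in Treg and Rpl12 and Rpl22l1 fell, 3 of 50 members (6%) against 7.5% of all genes, and the median of the members was -0.066 against -0.011. This average uses both comparisons above and adds no samples to them. Its median was -0.039 with quantile normalization, with 32 of 50 changes negative in place of 39, and -0.016 with 29 negative without the arrays numbered 1, where Rps27l alone was called.

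The study's own question, whether the Treg to Tconv change differs between the strains, was tested as a difference of differences. No member passed it, against 0.11% of all genes, and 7 of 50 members had an unadjusted p under 0.05 in limma, against 4.97% of all genes. The change was more negative in NOD than in B6g7 for 40 of 50 members (55.9% of all genes), with a median difference of -0.181 against -0.027 over all genes, and of -0.086 with quantile normalization. Bright genes as a whole shifted the same way. The median difference was -0.214 over the 36 bright members, with 32 negative, and -0.118 over all 1488 bright genes, with 1009 negative. Rplp0 had the most negative difference (-0.614 ± 0.167, adjusted p = 0.716), followed by Rps10 (-0.563 ± 0.18), and Rps25 the most positive one (0.833 ± 0.338, adjusted p = 0.962). A brighter probe set that names Rps25 together with other genes had the opposite sign (-0.365, adjusted p = 0.962).

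Between the strains, the median of the members differed little in Tconv. In Tconv, Rps14 rose and Rps9 fell in NOD, 2 of 50 members (4%) against 3.05% of all genes. The median change was 0.002 against 0.026 over all genes, with 23 of 50 changes negative, and -0.038 with 30 negative after quantile normalization. Rpl4, Rpl10a, Rpl27a and Rps14 had all NOD Tconv arrays above all B6g7 Tconv arrays (8% against 11.5% of all genes), and Rpl14, Rpl37, Rpl37a, Rps6, Rps9 and Rps20 below them (12% against 6.19%).

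Treg of NOD were compared with Treg of B6g7. Rps9, Rplp0, Rps19 and Rps3a1 fell and no member rose, 4 of 50 (8%) against 3.33% of all genes. The median change was -0.163 against 0.001 over all genes, 40 of 50 changes were negative against 49.7% of all genes, and all 3 NOD arrays lay below all 3 B6g7 arrays for 22 members (44%) against 6.74% of all genes. Rps14 was the 1 member with all NOD arrays above (2% against 7.22%). Over the bright members the median was -0.212, with 33 of 36 negative, against -0.016 over all bright genes, and over the other 14 members it was 0.011. The comparisons of NOD Treg with NOD Tconv and with B6g7 Treg share the NOD Treg arrays. Quantile normalization gave a median of -0.112 with 38 of 50 negative and left 13 members (7.32% of all genes) with all NOD arrays below; without the arrays numbered 1 Rps9 alone was called, at a median of -0.152. The replicate numbers were counted as pairing these arrays as well. The block added Rpl19 to the calls (-0.426 ± 0.106, adjusted p = 0.0359), which made 5 members (10%) against 4.92% of all genes.

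**Figure D3:**
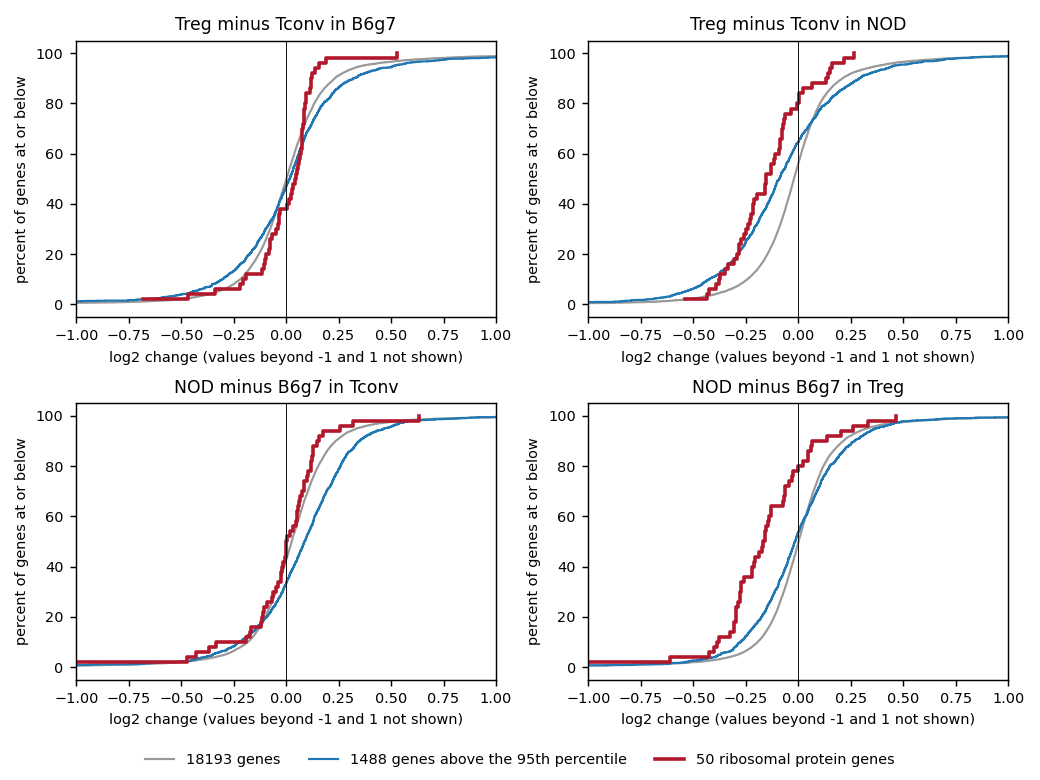
Cumulative share of genes (percent, vertical axis) by log2 change (horizontal axis) in the 4 comparisons of 2 groups, for the 50 ribosomal protein genes (red), the 1488 genes above the 95th percentile of intensity (blue) and all 18193 genes (grey). In both comparisons with NOD Treg most of the red line lies left of the grey one, with medians of -0.155 and -0.163, and in the other 2 it crosses 50% at 0.046 and 0.002.

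For 12 members every NOD Treg array lay below every one of the other 9 arrays, against 1.13% of all genes: Rpl7, Rpl8, Rpl19, Rpl22l1, Rplp0, Rplp2, Rps3, Rps3a1, Rps7, Rps10, Rps19 and Rps24. With quantile normalization these were 7 members (1.18% of all genes), and without NOD Treg 1 they were 17 (3.28%). Promoter entries were found for 10 of the 12, and 6 of these had a pyrimidine run in the window of a start.

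Probe sets that did not represent the members gave the same picture in part. The 56 other probe sets naming a member alone had a median of -0.127 in NOD Treg against NOD Tconv, with 47 negative, and of -0.096 in NOD Treg against B6g7 Treg, with 38 negative. The 110 probe sets that name a gene of the family together with others had medians of -0.191 (94 negative) and -0.158 (91 negative). In B6g7 Treg against B6g7 Tconv these shared probe sets were split, with 57 of 110 negative and a median of -0.003. They come from the same RNA and may bind the same transcripts, so they are no independent samples. Between the strains, 7 of the 110 were called lower and 1 higher in NOD Tconv. In NOD Treg 12 were called lower and 1 higher. Averaged over populations, the probe sets naming Rpl29 changed by -1.21 to -1.932 in NOD (adjusted p of at most 1.69e-05). The largest fall was in a probe set naming Rpl17 (-2.56, adjusted p = 1.79e-06). The others naming Rpl17 lay between -0.02 and 0.004. The cause of these differences was not tested.

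The stalk of the large subunit recruits the elongation factors to the ribosome. Rplp0 is its scaffold, and read 12.09, 11.98 and 12.05 in B6g7 Tconv, 12.08, 11.897 and 12.37 in B6g7 Treg, 12.22, 11.94 and 11.98 in NOD Tconv and 11.54, 11.47 and 11.51 in NOD Treg. The 3 NOD Treg arrays were the lowest of all 12, and the other 3 groups overlapped. Against NOD Tconv, Rplp0 in NOD Treg fell 1.45-fold (log2 change and SE -0.54 ± 0.118, adjusted p = 0.0245). Against B6g7 Treg it was 1.53-fold lower (-0.61 ± 0.118, adjusted p = 0.0111), a call kept in 12 of 12 fits that left out 1 array, with an adjusted p of at most 0.0495. The call against NOD Tconv was kept in 7 of 12, and was lost without NOD Tconv 1 (-0.453, adjusted p = 0.126), NOD Tconv 3 (0.0588), NOD Treg 1 (0.0577), NOD Treg 2 (0.0983) or NOD Treg 3 (0.0865). Rplp2, a partner of Rplp0 in the stalk, read 13.304, 13.18 and 13.23 in B6g7 Tconv, 13.11, 13.12 and 13.202 in B6g7 Treg, 13.31, 13.17 and 13.29 in NOD Tconv and 12.89, 13.07 and 13.04 in NOD Treg. Its NOD Treg arrays were the lowest as well, at changes of -0.257 ± 0.085 (adjusted p = 0.188) and -0.144 ± 0.085 (adjusted p = 0.678).

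Among the 20 proteins of the large subunit, Rpl12 and Rpl8 passed a test. Rpl12 forms the base of the stalk with Rplp0. It read 10.43, 10.28 and 10.29 in B6g7 Tconv and 9.89, 9.901 and 10.2 in B6g7 Treg, and 10.56, 10.21 and 10.59 in NOD Tconv and 10.01, 9.93 and 10.12 in NOD Treg, so that each Treg array lay below each Tconv array of its own strain. Averaged over strains it was 1.31-fold lower in Treg (-0.386 ± 0.086, adjusted p = 0.0165), with changes of -0.338 ± 0.122 in B6g7 and -0.434 ± 0.122 in NOD. The call was kept in 11 of 12 fits leaving out 1 array (adjusted p = 0.0502 without NOD Tconv 3). Another 2 probe sets, which name Rpl12 with other genes, were brighter (means of 12.24 and 12.952 against 10.201). On average they changed by -0.342 and -0.144, without passing the test. In B6g7 they did not show the fall, at 0.03 (adjusted p = 0.981) and -0.054 (adjusted p = 0.904). In NOD they changed by -0.714 (adjusted p = 0.0804) and -0.234 (adjusted p = 0.261).

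Rpl8 lies near the catalytic centre of the large subunit. It read 11.97, 11.78 and 11.86 in B6g7 Tconv, 11.88, 11.69 and 11.69 in B6g7 Treg, 12.06, 11.81 and 11.75 in NOD Tconv and 11.47, 11.37 and 11.51 in NOD Treg, where all arrays were lower than any other. In NOD it was 1.34-fold lower in Treg (-0.425 ± 0.104, adjusted p = 0.0452). This call was kept in 1 of 12 fits that left out 1 array, with B6g7 Treg 1 the array that could be left out, and its adjusted p reached 0.215 without NOD Tconv 1.

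The other large subunit members did not pass, and the named ones show the spread. Rpl14 read 8.94, 8.89 and 8.66 in B6g7 Tconv, 8.74, 8.69 and 7.66 in B6g7 Treg, 7.998, 8.45 and 8.62 in NOD Tconv and 8.14, 8.11 and 8.36 in NOD Treg. Its changes, -0.31 ± 0.175 for Treg and -0.316 ± 0.175 for NOD on average, were among the most negative of the family, but 1 array, B6g7 Treg 3, lay far below the others of its group. Of 5 probe sets that name it with another gene, 3 passed as lower in Treg on average (-0.517, adjusted p = 0.0326, -0.528, adjusted p = 0.0269, and -0.452, adjusted p = 0.0433). Rpl10a, of the flexible L1 stalk, read 13.63, 13.56 and 13.73, then 13.61, 13.77 and 13.79 in Treg, in B6g7, and 13.74, 13.74 and 13.83, then 13.65, 13.84 and 13.83 in Treg, in NOD, with overlap between Treg and Tconv in each strain. Rpl27a read 8.18, 8.12 and 8.06 in B6g7 Tconv, 8.18, 8.29 and 7.89 in B6g7 Treg, 8.28, 8.24 and 8.28 in NOD Tconv and 7.98, 8.49 and 8.299 in NOD Treg, a strain change of 0.141 ± 0.092 on average (adjusted p = 0.647). A probe set that names Rpl27a with other genes was far brighter (mean of 12.149 against 8.19), with a strain change of -0.03 on average (adjusted p = 0.958). Rpl13a, the least variable member, read 14.16, 14.13 and 14.095 and 14.22, 14.16 and 14.15 in B6g7 Tconv and Treg and 14.24, 14.17 and 14.16 and 14.09, 14.13 and 14.08 in NOD Tconv and Treg. Its highest and lowest arrays differed by 0.159.

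**Figure D4:**
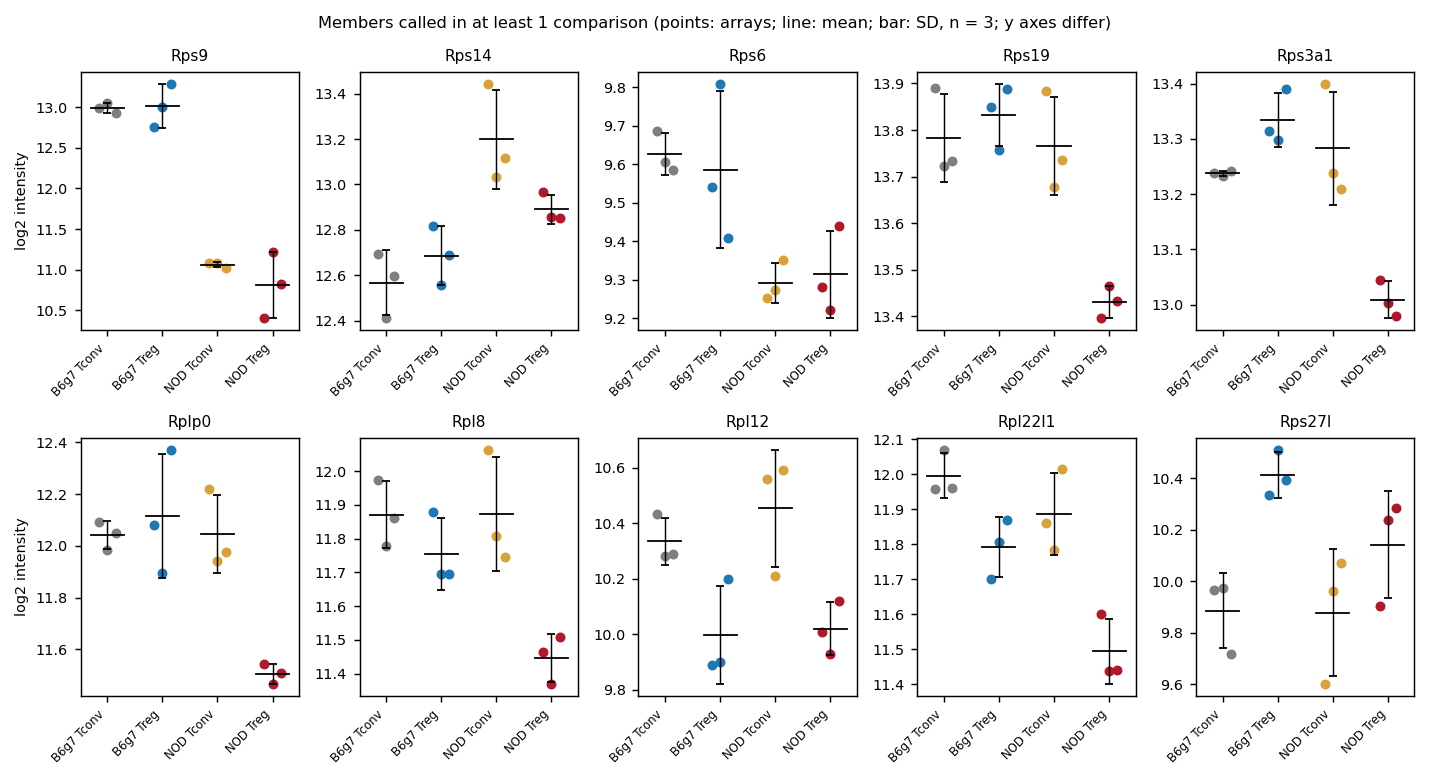
Log2 intensity on each array (points, by group) of the 10 members that passed the test in at least 1 comparison, with the mean (line) and SD (bar, n = 3) of each group; the vertical axes differ between panels. Rps9 and Rps14 separate the strains in both populations, and in Rplp0, Rpl8, Rpl22l1, Rps3a1 and Rps19 the NOD Treg arrays lie below the other 9.

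Among the 21 proteins of the small subunit, Rps9, Rps14, Rps6, Rps19 and Rps3a1 passed a test between the strains and none passed one between Treg and Tconv. Averaged over Tconv and Treg, Rps14 rose and Rps9 and Rps6 fell in NOD, which makes 3 of 50 members (6%) against 5.8% of all genes, and the median of the members was -0.086 against 0.013.

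Rps9 lies at the entry of the messenger RNA channel of the small subunit. Its brightest probe set, 1434624_x_at, read 12.99, 13.05 and 12.93 in B6g7 Tconv, 12.75, 13.01 and 13.29 in B6g7 Treg, 11.08, 11.09 and 11.03 in NOD Tconv and 10.41, 11.22 and 10.82 in NOD Treg. The strains were far apart and Treg and Tconv overlapped within B6g7 and within NOD. The fold was 3.79 lower in NOD Tconv (-1.924 ± 0.176, adjusted p = 2.95e-05) and 4.604 lower in NOD Treg (-2.203 ± 0.176, adjusted p = 8.74e-06), and both calls were kept in 12 of 12 fits leaving out 1 array. The 2 other probe sets naming Rps9 alone did not show it. Probe set 1433689_s_at changed by 0.456 in Tconv (adjusted p = 0.26) and 0.026 in Treg (adjusted p = 0.991), and 1426958_at by 0.013 and -0.162 (adjusted p = 0.992 and 0.934). The strain difference is thus a value of 1 of 3 probe sets, and the probe sequences were not used here.

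Rps14, a small subunit protein next to the messenger RNA exit, read 12.69, 12.41 and 12.596 in B6g7 Tconv, 12.82, 12.56 and 12.69 in B6g7 Treg, 13.44, 13.03 and 13.12 in NOD Tconv and 12.97, 12.86 and 12.85 in NOD Treg. In both populations every NOD array lay above every B6g7 array. The gene was 1.55-fold higher in NOD Tconv (0.632 ± 0.12, adjusted p = 0.0102) and 1.34-fold higher on average (0.418 ± 0.085, adjusted p = 0.00935), while the Treg change alone did not pass (0.204 ± 0.12, adjusted p = 0.678). Its second probe set, 1437706_x_at, gave 0.658 in Tconv (adjusted p = 0.00475), 0.338 in Treg (adjusted p = 0.198) and 0.498 on average (adjusted p = 0.00167). The average was called in 12 of 12 fits leaving out 1 array and the Tconv change in 11 of 12 (0.554, adjusted p = 0.0599, without B6g7 Tconv 2).

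**Figure D5:**
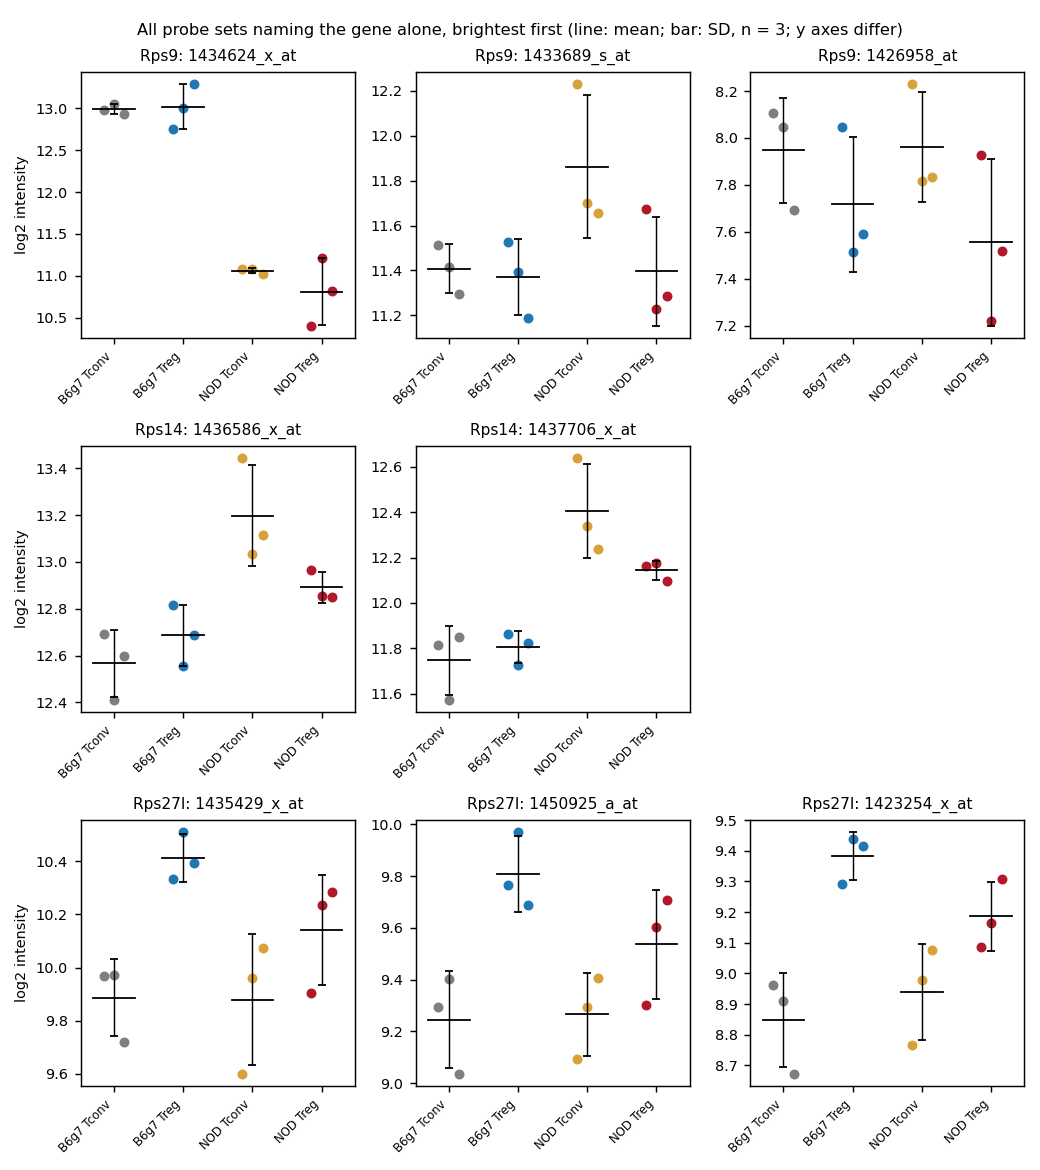
Log2 intensity on each array (points, by group) of every probe set that names Rps9, Rps14 or Rps27l alone, brightest first, with the group mean (line) and SD (bar, n = 3); the vertical axes differ. Of the 3 Rps9 probe sets, 1434624_x_at is lower in NOD in both populations and the others are not, whereas both Rps14 probe sets are higher in NOD and all 3 Rps27l probe sets have higher means in Treg.

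Rps6 is the ribosomal protein phosphorylated by the S6 kinases downstream of mTORC1. It read 9.69, 9.61 and 9.58 in B6g7 Tconv and 9.25, 9.27 and 9.35 in NOD Tconv, which did not overlap, and 9.54, 9.81 and 9.41 in B6g7 Treg and 9.28, 9.22 and 9.44 in NOD Treg, which did. On average it was 1.23-fold lower in NOD (-0.303 ± 0.075, adjusted p = 0.033), and neither population passed alone. The other probe set naming Rps6 alone, which is dim, gave 0.08 on average (adjusted p = 0.915), and 9 probe sets that name it with another gene spanned -0.149 to 0.043 with 0 called. The brightest of the 9 had a mean of 14.299, against 9.455 for the called probe set, and changed by -0.034 (adjusted p = 0.928). The called probe set therefore need not give the level of the gene. The call was kept in 4 of 12 fits leaving out 1 array, with adjusted p-values of at most 0.0861, reached without NOD Treg 2. It was lost without B6g7 Tconv 1, B6g7 Tconv 2, any NOD Tconv array, B6g7 Treg 2, NOD Treg 1 or NOD Treg 2.

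Rps19, the protein first linked to Diamond-Blackfan anaemia, read 13.89, 13.72 and 13.73 in B6g7 Tconv, 13.85, 13.76 and 13.89 in B6g7 Treg, 13.88, 13.68 and 13.74 in NOD Tconv and 13.396, 13.47 and 13.43 in NOD Treg. Rps3a1, a protein on the solvent side of the small subunit, read 13.24, 13.23 and 13.24 in B6g7 Tconv, 13.32, 13.298 and 13.39 in B6g7 Treg, 13.4, 13.24 and 13.21 in NOD Tconv and 13.05, 13.003 and 12.98 in NOD Treg. In both genes the NOD Treg arrays were the lowest of all 12. Against B6g7 Treg, Rps19 in NOD Treg was 1.32-fold lower (-0.401 ± 0.087, adjusted p = 0.0227), kept in 7 of 12 fits leaving out 1 array and lost without B6g7 Treg 1 or 3 or any NOD Treg array (adjusted p up to 0.087). A dimmer probe set that names Rps19 together with another gene passed the same test in the opposite direction (0.806, adjusted p = 0.0114). Rps3a1 was 1.25-fold lower (-0.326 ± 0.08, adjusted p = 0.0453), kept in 1 of 12 such fits, the one without NOD Tconv 1 (adjusted p up to 0.161, without NOD Treg 3). Neither passed against NOD Tconv in the fit without the block (Rps19 -0.335 ± 0.087, adjusted p = 0.0647; Rps3a1 -0.274 ± 0.08, adjusted p = 0.109).

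Rps24, needed for maturation of the small subunit RNA, read 12.89, 12.798 and 12.82 in B6g7 Tconv, 12.82, 12.84 and 12.61 in B6g7 Treg, 12.91, 12.699 and 12.82 in NOD Tconv and 12.38, 12.46 and 12.54 in NOD Treg. Its brightest probe set missed the threshold against NOD Tconv (-0.35 ± 0.093, adjusted p = 0.0712), and its next brightest pair, 1453362_x_at and 1428530_x_at, passed it with -0.507 (adjusted p = 0.0319) and -0.541 (adjusted p = 0.0166). Rps25, a small subunit protein used by internal ribosome entry sites, read 10.37, 10.65 and 10.75 in B6g7 Tconv, 9.67, 10.35 and 9.71 in B6g7 Treg, 9.71, 10.45 and 10.51 in NOD Tconv and 10.05, 10.67 and 10.404 in NOD Treg. Its B6g7 Treg arrays lay below the B6g7 Tconv ones at a change of -0.683 ± 0.239 (adjusted p = 0.217). A brighter probe set that names Rps25 together with other genes (mean 11.939 against 10.275) did not show this. It changed by -0.048 in B6g7 (adjusted p = 0.938) and by -0.413 in NOD (adjusted p = 0.0646).

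Of the small subunit members with the brightest probe sets, Rps7 read 14.16, 14.16 and 14.199 and 14.19, 14.18 and 14.29 in B6g7 Tconv and Treg, and 14.17, 14.13 and 14.15 and 14.07, 14.07 and 14.05 in NOD Tconv and Treg, and its NOD Treg arrays were the lowest by a small margin. Rps18 read 13.95, 13.82 and 13.89 in B6g7 Tconv, 13.82, 13.96 and 13.99 in B6g7 Treg, 13.83, 13.89 and 13.95 in NOD Tconv and 13.704, 14.01 and 13.97 in NOD Treg, with all groups overlapping. Rps28 read 14.02, 13.93 and 13.91 and 13.83, 13.95 and 13.85 in B6g7 Tconv and Treg and 13.797, 13.91 and 13.95 and 13.73, 13.904 and 13.91 in NOD Tconv and Treg, again with overlap. Rps16 was represented by a dim probe set, at 4.41, 3.95 and 4.28 in B6g7 Tconv, 4.2, 4.41 and 4.38 in B6g7 Treg, 4.21, 4.26 and 3.87 in NOD Tconv and 4.25, 4.32 and 4.42 in NOD Treg, and no fold is given for it. Probe sets that name Rps16 with other genes were bright (means of 13.56 and 14.374), so the dim one need not give the level of the gene.

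The paralogs are near copies of ribosomal proteins, some with restricted expression. Rpl22l1 and Rps27l passed a test, and the other 4 did not by their brightest probe set. Rpl22l1 is the paralog of Rpl22, the protein whose loss blocks development of alpha-beta T cells, and can take its place in the ribosome. It read 11.96, 12.07 and 11.96 in B6g7 Tconv, 11.7, 11.81 and 11.87 in B6g7 Treg, 11.86, 11.79 and 12.02 in NOD Tconv and 11.601, 11.44 and 11.44 in NOD Treg. In each strain the Treg arrays lay below the Tconv arrays. The change was -0.299 ± 0.065 on average (1.23-fold, adjusted p = 0.0141), called in 12 of 12 fits leaving out 1 array, with -0.205 ± 0.092 in B6g7 (adjusted p = 0.413) and -0.394 ± 0.092 in NOD (adjusted p = 0.0355). The call in NOD alone was kept in 4 of the 12, and its adjusted p was 0.17 without NOD Tconv 3, 0.146 without NOD Treg 3, 0.143 without NOD Treg 2, 0.102 without NOD Tconv 1, and between 0.0503 and 0.0571 without NOD Tconv 2, B6g7 Tconv 1, B6g7 Tconv 2 or B6g7 Treg 2. Rpl22 itself read 13.32, 13.299 and 13.28 in B6g7 Tconv, 13.48, 13.38 and 13.25 in B6g7 Treg, 13.57, 13.31 and 13.31 in NOD Tconv and 13.29, 13.19 and 13.24 in NOD Treg, with a change of -0.045 ± 0.067 on average (adjusted p = 0.89).

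Rps27l is the paralog of Rps27 that p53 induces. It read 9.97, 9.97 and 9.72 in B6g7 Tconv, 10.34, 10.51 and 10.39 in B6g7 Treg, 9.6, 9.96 and 10.07 in NOD Tconv and 9.904, 10.24 and 10.29 in NOD Treg. B6g7 Treg lay above B6g7 Tconv without overlap, and in NOD the groups overlapped. On average it was 1.32-fold higher in Treg (0.395 ± 0.098, adjusted p = 0.0313). Its other probe sets, 1450925_a_at and 1423254_x_at, gave 0.417 (adjusted p = 0.0202) and 0.390 (adjusted p = 0.00781) on average, and both passed in B6g7 alone (0.563, adjusted p = 0.0417, and 0.534, adjusted p = 0.0157), where the brightest gave 0.527 ± 0.139 (adjusted p = 0.0659). The call of the brightest was kept in 4 of 12 fits leaving out 1 array, and without B6g7 Tconv 2 or 3, NOD Tconv 1 or 2, B6g7 Treg 2 or 3, or NOD Treg 2 or 3 its adjusted p lay between 0.0512 and 0.0878. The probe set of Rps27, 1460699_at, read 6.93, 6.81 and 7.18 in B6g7 Tconv, 6.79, 6.95 and 6.98 in B6g7 Treg, 7.18, 6.96 and 7.096 in NOD Tconv and 6.95, 6.68 and 6.96 in NOD Treg, with a change of -0.14 ± 0.083 (adjusted p = 0.543). A probe set that names Rps27 with another gene was far brighter (mean of 13.651 against 6.955). The values of 1460699_at therefore need not give the level of Rps27 beside its paralog.

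Rpl7l1, a nucleolar relative of Rpl7, read 8.83, 8.59 and 8.397 in B6g7 Tconv, 8.95, 8.81 and 8.47 in B6g7 Treg, 8.71, 8.82 and 9.05 in NOD Tconv and 8.74, 9.12 and 9.15 in NOD Treg. The groups overlapped, at a strain change of 0.258 ± 0.113 (adjusted p = 0.337), which passed without the arrays numbered 1 (0.47 ± 0.105, adjusted p = 0.0264). Of its other probe sets naming it alone, the dim 1439780_at passed as lower in NOD, by -0.816 in Tconv (adjusted p = 0.00211), -0.861 in Treg (adjusted p = 0.00138) and -0.839 on average (adjusted p = 4.91e-05), and 1426386_at changed by -0.039 on average (adjusted p = 0.958). Rpl7 read 13.54, 13.44 and 13.47 in B6g7 Tconv, 13.44, 13.54 and 13.65 in B6g7 Treg, 13.58, 13.51 and 13.56 in NOD Tconv and 13.36, 13.44 and 13.38 in NOD Treg, the last being the lowest 3 arrays. Rpl39l, the testis-enriched copy of Rpl39, read 7.09, 7.27 and 7.23 in B6g7 Tconv, 7.02, 7.24 and 7.07 in B6g7 Treg, 7.55, 7.2 and 7.18 in NOD Tconv and 7.62, 7.21 and 7.501 in NOD Treg, a strain change of 0.225 ± 0.092 that did not pass (adjusted p = 0.28). Rpl39 read between 7.95 and 8.19 on all 12 arrays, with overlap between all groups. A probe set that names Rpl39 with another gene was far brighter (mean of 13.985 against 8.032). The values printed for Rpl39 therefore need not give the level of the gene beside its paralog.

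Rpl3l, known from striated muscle, read 5.404, 5.49 and 5.44 in B6g7 Tconv, 5.36, 5.695 and 5.49 in B6g7 Treg, 5.37, 5.26 and 5.52 in NOD Tconv and 5.16, 5.44 and 5.31 in NOD Treg, close to the bound for dim probe sets. Rps4l, a copy related to another small subunit gene, Rps4x, lay at 4.95, 4.87 and 4.75 in B6g7 Tconv, 4.76, 4.68 and 4.56 in B6g7 Treg, 4.96, 4.89 and 5.19 in NOD Tconv and 4.82, 4.42 and 4.97 in NOD Treg and was dim throughout. Rps19bp1 changed by -0.223 ± 0.1 in NOD Treg against NOD Tconv (adjusted p = 0.442). In all, 10 of 50 members (20%) were called in at least 1 of the 7 comparisons, in 15 calls, against 11.9% of all genes.

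Other genes of ribosome production were read from lists. The 76 mitochondrial ribosomal proteins, which belong to a separate ribosome, had a median of -0.139 in NOD Treg against NOD Tconv with 65 negative, not far from the -0.155 of the cytosolic ones, and 1 of them fell (Mrps14, -0.419 ± 0.097, adjusted p = 0.0328), which is 1.3% of the list against 4.38% of all genes. In B6g7 their median was -0.012, and Mrps18b and Mrps28 fell (-0.543, adjusted p = 0.029, and -0.522, adjusted p = 0.0339), 2.6% against 4.55%. In NOD Treg against B6g7 Treg their median was -0.079, with Mrpl16 and Mrpl20 lower and Mrpl17 higher (3.9% against 3.33%).

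The 41 ribosome biogenesis genes, which make and process ribosomal RNA, had medians of -0.251 in NOD (36 negative, 0 called) and -0.097 in B6g7 (28 negative) for Treg against Tconv. Averaged over strains 4 of 41 (9.8%) fell in Treg and 0 rose, against 7.5% of all genes called in either direction: Wdr12 (-0.565, adjusted p = 3.16e-04), Utp20 (-0.391, adjusted p = 0.016), Rrp12 (-0.392, adjusted p = 0.0175) and Ltv1 (-0.31, adjusted p = 0.0237). Polr1c, a subunit shared by RNA polymerases I and III, was lower in NOD in Tconv (-1.483, adjusted p = 0.00107) and in Treg (-1.003, adjusted p = 0.0174); 4.9% and 2.4% of the list were called there, against 3.05% and 3.33% of all genes.

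Among 11 elongation factors and other TOP genes the median was -0.198 in NOD (9 negative), and 1 gene, Vim, rose in Treg on average (0.375, adjusted p = 0.0253), 9.1% of the list against 7.5% of all genes. A list of 47 genes for initiation factors was taken by symbols starting with Eif and a digit, so not every gene in it need be such a factor. Of these, Eif4e3 and Eif5a rose in B6g7 Treg (0.544 and 0.386), 4.3% against 4.55% of all genes. In NOD Treg Eif4e3 rose (0.581), 2.1% against 4.38%. The median of the 47 was 0.045 in B6g7 and -0.042 in NOD. Of 18 regulators of ribosome production, Mxd4, an antagonist of Myc, rose in Treg on average (0.853, adjusted p = 0.0451; 5.6% against 7.5% of all genes), and no other was called in any comparison. Fau, the 1 measured ribosomal protein gene whose symbol lies outside the rule, changed by -0.185 in NOD Treg against NOD Tconv, by 0.078 in B6g7 and by -0.229 in NOD Treg against B6g7 Treg.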

How the data were processed

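Each probe set has 1 value per array, an intensity that was deposited after RMA normalization, a step named in the series text and again in the submitters' processing notes; its software version is not given in the sources used here. Per the labels' protocols, Trizol RNA went through a pair of amplification rounds and was then labelled with biotin. That the scale is linear follows from the values, which ran from 5.78 to 27206.8 with array medians of 83.9 to 88.6, and arrays have no count depth: their number limits the precision. No detection calls were used, and the table holds 45101 probe sets, of which 64 are controls.

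Here log2 was taken and limma 3.58.1 (in R 4.3.3, with lmFit on 1 mean for each of the 4 groups over all 12 arrays, then eBayes) was fitted on 45037 probe sets with Benjamini-Hochberg adjustment over all of them; a gene is called at an adjusted p under 0.05. Of the probe sets, 34945 name 1 gene in the platform annotation, 932 several and 9160 none. Where several probe sets named a gene, the one with the highest mean log2 over the 12 arrays stood for it. An error beside a change is a SE, and beside a level a SD. Exact permutation tests of single genes were not run, since 3 arrays against 3 cannot give a p under 0.1. On simulated data for Treg minus Tconv in B6g7 over 45037 probe sets, planted changes of 0.3, 0.5, 1 and 2 were recovered in 4%, 24%, 80% and 98% of 50 probe sets each.

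Replicate numbers were checked for pairing by the correlation of same-numbered arrays' deviations from their group means: 0.564, 0.315 and 0.401 in NOD Treg and NOD Tconv, 0.671, 0.338 and 0.302 in the Treg of both strains, but 0.521, -0.08 and 0.504 in B6g7 and 0.436, -0.041 and 0.199 in the Tconv of both strains. All correlations were positive in the first pair of comparisons, so the numbers count as pairing there. In each of the others a correlation was negative. The labels name no batch other than these numbers.

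Values per array are given for members called in any comparison, the 4 highest and lowest in each averaged comparison, the 4 of highest and lowest intensity and the paralog pairs that the rule for named genes lists; others named were chosen after their values were seen. The members and gene lists were chosen with earlier results of these data known. Alternatives covered normalization, scaling, filtering, a pseudocount of 32, the replicate block, array weights, the arrays fitted, the prior, the actin difference, the choice of probe set and leaving out arrays.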

Additional observations from a re-analysis of the deposited data

Results flagged for a closer look

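For Rps3a1, a small subunit protein, all 3 Treg arrays lay above all 3 Tconv arrays in B6g7 and all 3 lay below them in NOD. The gene was flagged from among all members. Of all genes, 9.91% lay above in this way in B6g7 and 11.1% below in NOD. The share of all genes with both was not counted. The Treg minus Tconv change of Rps3a1 differed by -0.371 on the log2 scale (NOD minus B6g7), and the test of that difference in limma did not pass (adjusted p = 0.898). In B6g7 the change was 0.097 ± 0.080 and in NOD -0.274 ± 0.080, and neither passed alone.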

How the results depend on the processing

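Over the alternatives, the calls of Rps9 by its brightest probe set and of Rps14 averaged over populations were kept in all 12 fits without 1 array each, and those of Rps9 were lost with its second probe set, where the change reversed to 0.456 in Tconv, 0.026 in Treg and 0.241 on average. Rps6 likewise reversed, to 0.08 on average, with its second, dim probe set, and Rps3a1 reversed to 0.033 in Treg between strains with arrays scaled to the median level of the ribosomal protein probe sets. That scaling called 9 members in Treg minus Tconv in NOD and 10 in NOD minus B6g7 in Treg, 9 of them higher each time; it moved the median of all genes to 0.3614 and 0.3598. Scaling to the members' median deviation, an alternative chosen after seeing the data, called 0 and 2, at all-gene medians of 0.1512 and 0.1625. No median of the members is given under these scalings, which set it. Quantile normalization gave 0 calls and a median of -0.066 in Treg minus Tconv in NOD, -0.086 in the strain difference and -0.112 in NOD minus B6g7 in Treg. Without the 4 arrays numbered 1 there were 1 call in B6g7, 0 in NOD (median -0.09), 1 averaged over strains (median -0.016) and 1 in NOD minus B6g7 in Treg. The replicate block called 2 in B6g7, 5 in NOD, and 6 in NOD minus B6g7 averaged over populations. Those in B6g7 were Rps25 (-0.683 ± 0.14, adjusted p = 0.0107) and Rps27l (0.527 ± 0.121, adjusted p = 0.0218). In B6g7 and in the averages the numbers were not counted as pairing. In the comparisons counted as paired the block changed no call beyond those named. Array weights gave 2 calls in B6g7, 5 averaged over strains, 8 in NOD minus B6g7 in Treg and 6 averaged over populations. Log2 of intensity plus 32 gave 6 calls in NOD, 6 averaged over strains and 6 averaged over populations. With the actin difference as covariate, 2 were called in B6g7 and 7 averaged over populations. Gene means over all probe sets gave 1 call in B6g7, 7 in NOD and 5 averaged over strains; the probe set of second highest mean gave 1 in B6g7, 1 in NOD minus B6g7 in Tconv and 1 averaged over populations. Fitting the compared arrays alone gave 1 call in NOD and 1 in NOD minus B6g7 in Treg, and the trended robust prior 1 in NOD. The cause of these shifts was not tested. Leaving out 1 array in turn, calls ranged from 0 to 1 in Treg minus Tconv in B6g7, 0 to 3 in NOD and 2 to 4 averaged, 0 to 0 in the strain difference, and 1 to 2 (Tconv), 2 to 4 (Treg) and 2 to 4 (averaged) between strains. The medians ranged from 0.015 to 0.056, -0.183 to -0.123, -0.083 to -0.033, -0.214 to -0.132, -0.027 to 0.048, -0.183 to -0.143 and -0.112 to -0.057 in the same order. In simulated data 24% of changes of 0.5 were recovered and 4% of those of 0.3.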
